A study of Mus musculus with 14 samples.

Results

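The genes of myelin and of its oligodendrocytes were followed through 7 pools of neurons of the medial vestibular nucleus of mice, which lies in the brainstem and serves balance and eye movement. The 10 genes were Mbp, Cnp, Mog, Mag, Mobp, Cldn11, Mal, Ermn, Olig1 and Olig2, taken by symbol in the platform annotation out of 16245 genes, with all 19 of their probe sets in the table. Mbp and Cnp were chosen by the spread of their log2 signals over the 7 pools of this table, and the other 8 because they mark oligodendrocytes. The levels of Mbp and Cnp are therefore given as a description, with no test.

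The pools were 2 excitatory types, E1 and E2, and 5 inhibitory types, I1a, I1b, I2, I3a and I3b. All came from mice of the YFP-16, GIN and GlyT2-13 lines on the C57BL/6 background, aged 24 to 32 days after birth. These transgenes use regulatory sequences of Thy1, Gad1 and Slc6a5 to mark neurons, and the labels do not say which line gave which cells. Per the labels, cDNA was amplified from each cell, cells were assigned to types, and the cDNA of a type was combined into 1 pool and hybridised to 2 arrays, which are technical replicates. Each type is thus 1 pool of a number of cells that the sources used here do not give, and the spread between its arrays is technical. Type E3 was not analysed here.

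Myelin is the layered membrane that oligodendrocytes wrap around axons of the central nervous system so that impulses travel faster. Its main proteins are made almost only by these cells, and myelin basic protein, the product of Mbp, holds the cytoplasmic faces of the layers together. Cnp encodes the cyclic nucleotide phosphodiesterase of myelin, which keeps cytoplasmic channels open within the sheath. The Mbp locus also gives longer transcripts, called golli, which are known from neurons and immune cells, and which transcripts each probe set reads is not given in the sources used here.

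Values are log2 signals made by the authors with GCRMA, in which the lowest value of the table was 2.39 and the highest 15.9. A level of 5 was taken as the mark of a gene clearly above that floor. The 2 arrays of each pool correlated with r of 0.981 to 0.992 across the 4410 genes that reached a mean of 5 in at least 1 pool, genes not being independent replicates. On each array 15.1% to 16.4% of probe sets reached 5. With 1 pool a type, the single pool limits what every value says of its type, however many arrays were run.

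Only 2 of the 10 genes, Mbp and Cnp, reached a mean of 5 in any pool. Over all genes 27.1% did. The other 8 stayed near the floor in all 7 pools. Mbp and Cnp were both highest in I3a and next in I1b. In pooled cDNA, fewer cells with a transcript and less of it per cell cannot be told apart.

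Mbp (Entrez gene 17196) is read by 6 probe sets, of which 1433532_a_at had the highest mean over all arrays and stands for the gene. On the 2 arrays of each pool it gave 6.32 and 6.08 in I3a, 5.36 and 5.63 in I1b, and 2.68 and 4.17 in I3b. It gave 2.93 and 2.43 in E1, 3.44 and 2.44 in E2, 2.42 and 2.43 in I1a, and 2.53 and 2.42 in I2. I3a and I1b were above 5 on both arrays, and no array of the other 5 pools was. The pool means were 6.20 ± 0.17 in I3a and 5.50 ± 0.19 in I1b (SD over 2 technical arrays). I3b followed at 3.43 ± 1.05, and its arrays overlapped those of E2 at 2.94 ± 0.71. The remaining means were 2.68 in E1, 2.47 in I2 and 2.43 in I1a, and each of these neighbours overlapped the next. The arrays of I3a lay above those of I1b and those of I1b above those of I3b, so 2 of the 6 steps in the order were free of overlap. The spread pooled over the 7 pairs of arrays was 0.51 log2 units, beside a range of 3.77 between the highest and lowest pool mean. Of the 4410 genes that reached 5, 7.57% had a range of at least 3 log2 units, and Mbp ranked 167th by range. As Mbp was chosen for its range, nothing is read from that rank.

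The other probe sets of Mbp did not all read alike. Probe set 1454651_x_at averaged 4.65 in I3a and 4.16 in I1b, against 2.41 to 2.70 in the other 5 pools. Probe set 1436201_x_at averaged 4.95 in I3a and 4.19 in I1b, against 3.20 to 3.22 elsewhere. Probe set 1456228_x_at averaged 4.2 in I3a and 2.73 in I1b, with 2.42 to 2.45 elsewhere. These 3 thus had I3a on top, with I1b next. Over the 7 pool means they correlated with 1433532_a_at at r = 0.991, 0.960 and 0.827 in turn. The remaining 2 did not show this order. Probe set 1419646_a_at stayed between 2.45 and 2.83 on all 14 arrays. Probe set 1425264_s_at was highest in I3b, at 3.72, against 3.42 in I3a and 2.99 in I1b. Affymetrix gives the suffix x to probe sets some of whose probes can match other sequences, and a to those for several transcripts of 1 gene.

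Cnp (Entrez gene 12799) lies on chromosome 11 of GRCm38.p6 between 100574909 and 100591875 and is read by 2 probe sets. The brighter, 1437341_x_at, gave 9.0 and 9.27 on the arrays of I3a and 6.48 and 6.76 on those of I1b. It gave 5.54 and 4.99 in E1, 5.55 and 5.43 in E2, 4.85 and 5.01 in I1a, 4.40 and 4.11 in I2, and 5.19 and 5.08 in I3b. Both arrays of I3a stood above every other array, and both of I1b above all arrays of the other 5 pools, with steps of 2.52 and 1.13 log2 units between the means. Cnp was thus not confined to these pools by this probe set, since 5 of 7 pool means reached 5. The means ran 9.14 ± 0.19 in I3a, 6.62 ± 0.20 in I1b, 5.49 ± 0.08 in E2, 5.27 ± 0.39 in E1, 5.14 ± 0.07 in I3b, 4.93 ± 0.11 in I1a and 4.25 ± 0.21 in I2 (SD over 2 technical arrays each). E2 overlapped E1 and E1 overlapped I3b, while the other 4 steps were free of overlap. The range of pool means was 4.89, with a pooled technical spread of 0.20, and 2.36 without the I3a pool. The second probe set, 1418980_a_at, stayed between 2.39 and 2.58 on all 14 arrays, so the level of Cnp rests on 1 probe set with the suffix x. The 2 probe sets correlated at r = -0.14 over the 7 pools.

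**Figure D1:**
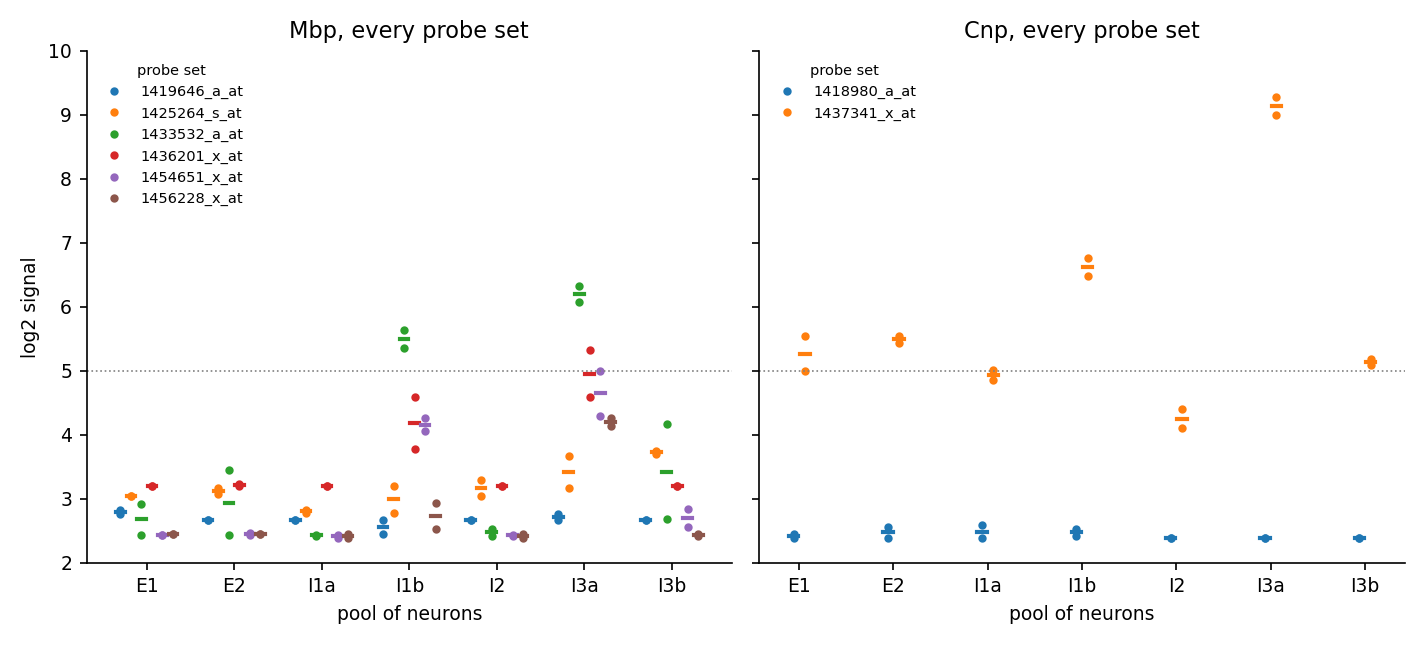
Log2 signal (vertical axis) of every probe set of Mbp (left) and Cnp (right) in the 7 pools (horizontal axis). Points are the 2 technical arrays of a pool, short bars their mean, and the dotted line a level of 5. Of 6 Mbp probe sets 4 are highest in I3a, and 1 of 2 Cnp probe sets is, at 9.0 and 9.27.

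Across pools the Mbp and Cnp levels went together. Their means correlated at r = 0.92 over 7 pools, and at r = 0.88 without I3a and 0.97 without I1b. Without both, r was 0.51 over 5 pools. The points share arrays and normalization, so r is given as a description. The 3 Mbp probe sets with the suffix x correlated with Cnp at r = 0.92 to 0.96, and the 2 that stayed flat or peaked in I3b at -0.01 and 0.24.

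In pairs of related types the differences of the 2 genes, first type minus second, had the same sign. Between E1 and E2 Mbp differed by -0.26 log2 units and Cnp by -0.22, and for both genes the arrays of the 2 pools overlapped. Between I1a and I1b Mbp differed by -3.07, at 2.43 in I1a and 5.50 in I1b, and Cnp by -1.69, at 4.93 in I1a and 6.62 in I1b. Between I3a and I3b Mbp differed by 2.78, at 6.20 in I3a and 3.43 in I3b, and Cnp by 4.0, at 9.14 in I3a and 5.14 in I3b. The high pool was the b type in the I1 family and the a type in the I3 family.

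The other 8 genes were measured by 11 probe sets, of which none reached 5 on any of the 14 arrays. Of these 11 probe sets, 10 stayed under 3 throughout. Among surface proteins of the sheath, Mog, a glycoprotein of its outer surface, read 2.39 to 2.57. Mag, an adhesion protein of the inner wrap next to the axon, read 2.54 to 3.12, with a lowest array of its own above the floor, and pool means of 2.79 in I3a and 2.95 in I1b. Cldn11, the claudin of the tight junctions within myelin, read 2.39 to 2.46. Mal, a proteolipid of membrane sorting, read 2.39 to 2.65. All 4 stayed under 5 on every array, and pools differed little.

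Of the proteins on the inner side, Mobp, a small basic protein of compact myelin, was read by 4 probe sets, and the highest of its values was 2.84, on 1 array of I1a. Its other 3 probe sets stayed at 2.39 on every array. Ermn, a cytoskeletal protein of mature oligodendrocytes, read 2.45 to 2.92. The transcription factors Olig1 and Olig2, which set the oligodendrocyte fate, read 2.39 to 2.67 and 2.39 to 2.64. Ranges of pool means over the 11 probe sets were 0 to 0.29 log2 units.

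The pool with the highest of these small values differed between genes. Of the 8 genes, 3 had their highest pool mean in I3a, namely Mal at 2.52, Olig1 at 2.54 and Olig2 at 2.51, each with 1 array at 2.65, 2.67 or 2.64 and the other at 2.39 or 2.41. I3b was the highest pool for 2 genes, and E2, I1a and I2 for 1 each. I1b was the highest pool for none. No test was made of these values, which came from 1 array each. The share of all genes with their highest mean in each pool was not worked out, so nothing is read from these counts.

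**Figure D2:**
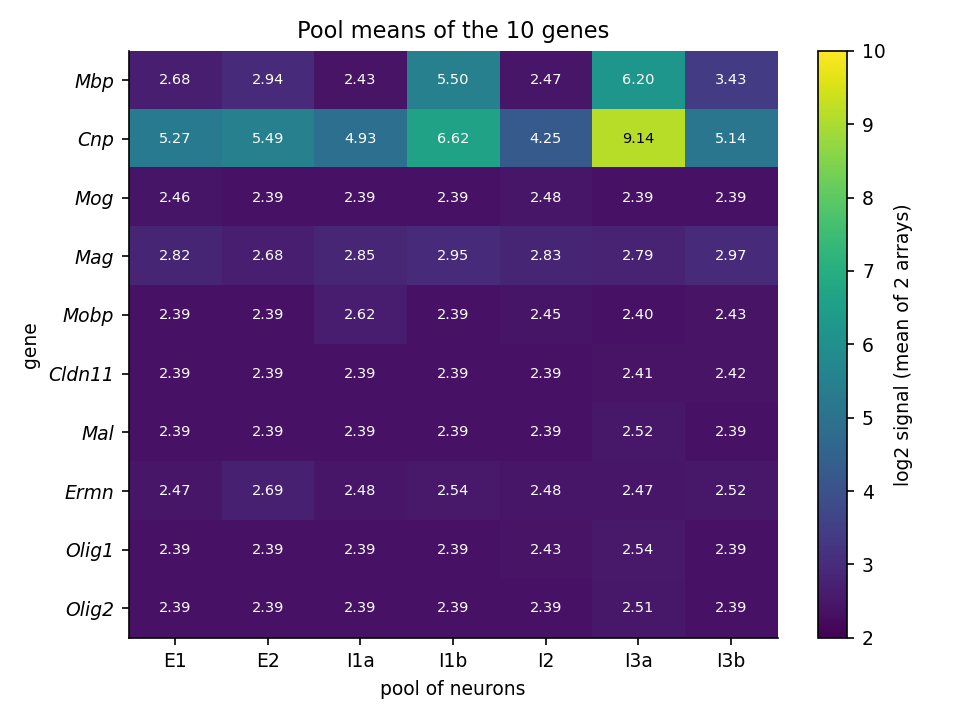
Mean log2 signal over the 2 arrays of each pool (columns) for the probe set that stands for each of the 10 genes (rows). Mbp at 6.20 and Cnp at 9.14 in I3a, and at 5.50 and 6.62 in I1b, stand out from the other 8 genes, none of which has a mean above 2.97.

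Promoter windows from RefSeq (GRCm38.p6), 250 bases before to 50 after a start, were found for 8 of the 10 genes. Those of Cnp, the gene with the highest level, and of Mobp, a myelin gene at the floor, are shown because they hold the same short word in different number. Capitals mark the letters ACAAAG, a core word of SOX factors such as Sox10 of oligodendrocytes, on either strand, so that CTTTGT is the same word on the other strand. The Cnp window is chr11:100574689-100574988 and the Mobp window chr9:120149492-120149791, both on the plus strand.
Cnp: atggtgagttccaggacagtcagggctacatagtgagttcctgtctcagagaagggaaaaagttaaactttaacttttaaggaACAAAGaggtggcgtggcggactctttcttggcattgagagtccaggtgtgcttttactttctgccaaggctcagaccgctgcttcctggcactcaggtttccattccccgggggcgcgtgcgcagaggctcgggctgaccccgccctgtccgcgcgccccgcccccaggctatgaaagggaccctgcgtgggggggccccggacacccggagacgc
Mobp: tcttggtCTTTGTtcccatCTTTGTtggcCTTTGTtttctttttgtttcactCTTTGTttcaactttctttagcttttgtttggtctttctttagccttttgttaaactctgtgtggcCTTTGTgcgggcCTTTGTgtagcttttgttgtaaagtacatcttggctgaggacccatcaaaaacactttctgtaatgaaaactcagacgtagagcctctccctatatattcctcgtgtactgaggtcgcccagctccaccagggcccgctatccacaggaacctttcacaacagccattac
The Cnp window holds the word at 1 place and the Mobp window at 6, and 18.7% of all 32851 windows hold it at least once. Of the other genes with a window, Mag holds it at 1 place in each of 2 of its 3 overlapping or neighbouring windows, and Mog, Cldn11, Mal, Ermn and Olig2 hold it at none. A second SOX core word, ACAATG, not marked above, occurs at 1 place each in the Ermn and Olig2 windows. It occurs in no window of the other 6 genes, Cnp and Mobp included, and in 12.6% of all windows. The E-box letters CANNTG, which Olig factors and other basic helix-loop-helix proteins bind, occur at 1 place in the Cnp window and at none in the Mobp window, and in 72.3% of all windows. A match is a description of letters and no evidence of binding.

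Markers of other cells were read beside these levels. Of 13 oligodendrocyte markers, which include the 8 genes above, 11 were in the table and none reached 5 in any pool. I3a was the highest pool for 4 of the 11, I3b for 3 and I1b for none, mostly by values near the floor. Sox10, the transcription factor of the whole lineage, lay between 4.57 in I3a and 4.86 in E2, with no excess in I3a or I1b. The sum of the linear signals of the other 10 markers was 59.7 in I3a and 55.8 in I1b, against 55.2 to 57.0 in the other 5 pools. Genes at the floor still add to such a sum, so most of each sum is floor and differences above it look small. Opalin, a sialoglycoprotein of myelin, was at 3.46 and 2.61 on the arrays of I3a, at 2.54 and 2.39 in I3b, and at 2.39 on every array of the 5 other pools. Cd9, a tetraspanin of myelin and other cells, read 3.67 and 2.95 in I3a, against 2.39 to 2.52 elsewhere. Both were highest in I3a on both arrays and under 4. In I1b, Opalin was at 2.39 and Cd9 at 2.40 and 2.39, while Mbp averaged 5.50. The part of oligodendrocyte RNA in the Mbp and Cnp levels was not tested.

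Of 15 astrocyte genes 13 stayed under 5, and the summed linear signal of these 13 was 82.4 in I3a and 68.8 in I1b, against 69.2 to 71.5 in the other pools. This sum too is mostly floor. Gja1, the main connexin of astrocytes, read 3.81 and 4.57 in I3a, against 2.39 to 2.92 on all other arrays, while Gfap, Aqp4 and Slc1a3, further astrocyte genes, were at 2.45 or below in every pool. Slc1a2, of the same list, averaged 2.55 in I3a and 2.63 in I3b, against 2.39 in the other pools. Of the 15 genes, 2 were highest in I3a and 1 in I1b. The 2 that reached 5, Aldoc, a glycolytic aldolase, and S100b, a calcium-binding protein, did so in all 7 pools, Aldoc at 11.6 to 12.3. Of 10 microglial genes and 3 Schwann cell genes in the table none reached 5. Their summed linear signals, again mostly floor, were 53.4 to 56.0 and 21.4 to 26.8. Among 12 precursor genes 4 reached 5, namely Bcan, Ptprz1, Lhfpl3 and Vcan. Bcan, the proteoglycan brevican, was at 10.5 in I3a and 7.95 in I3b, with 6.65 in I2 and 10.2 to 10.9 in the other pools. Vcan, the proteoglycan versican, was at 5.51 in I3a and 3.01 in I3b. It was highest in I2 at 5.91, with 2.88 to 4.06 in the other pools. Both Bcan and Vcan were called higher in I3a than in I3b. Lhfpl3 went the other way, at 5.67 in I3a and 6.84 in I3b, and was called lower in I3a, so 3 of the 4 were called. Over all genes 2.99% were called higher and 6.92% lower there. In I1b Bcan and Vcan were at 10.2 and 3.29, and none of the 4 was called between I1a and I1b. Meanwhile Cspg4, a defining proteoglycan of precursors, stayed at 2.39 and Pdgfra, their growth factor receptor, was at 3.82 in I1a and 2.39 to 2.62 elsewhere. Gpr17, of the same list, averaged 2.62 in I3a and 2.39 in every other pool. It was the only 1 of the 12 precursor genes to be highest in I3a, and none was highest in I1b. Of 9 endothelial and mural genes, Rgs5 and Itm2a reached 5, with Rgs5 at 7.35 in I2. Itm2a, a membrane protein of endothelium and other cells, was at 5.09 in I3a and 6.54 in I1b, at 9.89 in I2 and at 3.14 to 4.36 in the other pools. It was called in the direction of Mbp in both pairs of I types, with differences of -3.36 for I1a minus I1b and 1.95 for I3a minus I3b (limma adjusted p 5.7e-06 and 0.00040). Its part in the Mbp levels was not tested. Cldn5, a defining tight junction gene of endothelium, was at 2.39 in all pools. Of 11 neuronal genes 9 reached 5, among them Snap25, a protein of transmitter release, at 12.4 to 13.6, and Map2, a protein of dendrites, at 8.98 to 9.57.

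**Figure D3:**
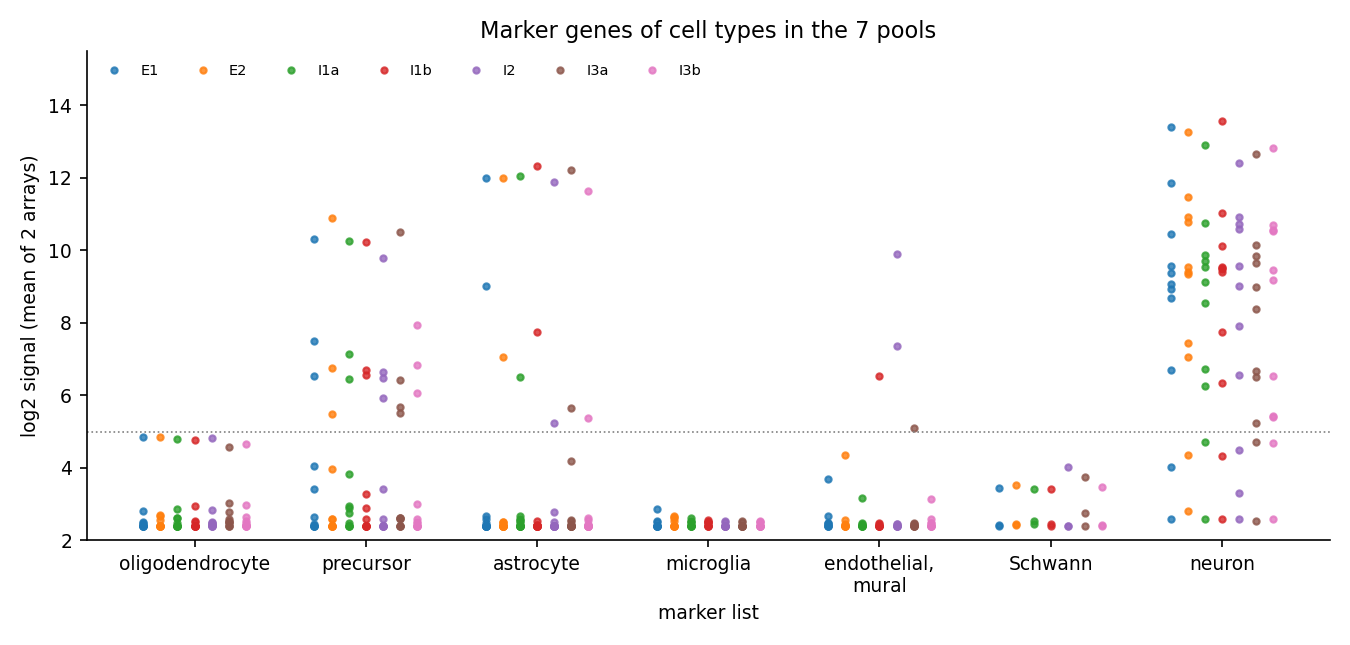
Mean log2 signal over 2 arrays (vertical axis) of each marker gene in the table, by marker list (horizontal axis), with the 7 pools in 7 colours side by side. The dotted line is a level of 5. No oligodendrocyte, microglial or Schwann cell gene lies above it, and 9 of 11 neuronal genes do.

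Control transcripts did not all follow the order of Mbp and Cnp. The bacterial control BioB read 9.62 in I3a and 7.88 in I1b, against 7.74 in I2 to 8.98 in E2 among the others. The control Lys read 12 in I3a and 10.8 in I1b, against 10.4 in E2 to 11.6 in I3b. Both were thus highest in I3a and neither was second in I1b. The 3' probe set of Gapdh exceeded its middle probe set by 2.44 log2 units in I3a and 2.49 in I1b, between the 2.13 of E1 and the 2.60 of I1a and I3b. Their part in the levels was not tested.

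Genes of myelin and oligodendrocytes outside the 10 were counted from a list of 42, of which 33 were in the table. I3a was the highest pool for 7 of the 33, I1b for 2 and any other pool for at most 6. These counts include genes near the floor, and no share over all genes was worked out. A level of 5 was reached by 7 of the 33. None of the 7 was highest in I1b, and Pllp, a plasma membrane proteolipid, and Sirt2, a tubulin deacetylase of the sheath, were highest in I3a, at 5.30 against 4.86 to 5.10 for Pllp and 6.07 against 5.71 to 5.85 for Sirt2. Qdpr, an enzyme that regenerates tetrahydrobiopterin, was bright everywhere, at 12.03 in I3a and 11.3 in I1b, against 11.3 to 12.4 in the other pools. Tppp, which promotes tubulin assembly, was at 7.02 in I3a and 6.59 in I1b, against 5.54 to 7.04. Tspan2, a tetraspanin, was highest in I2 at 5.91, with 5.28 in I3a and 4.39 in I1b. Gsn, an actin-severing protein, was highest in I2 at 5.18, with 2.40 in I3a and 2.67 in I1b. The pool ranges of the 7 genes ran from 0.36 for Sirt2 to 2.78 for Gsn, with 2.63 for Car2 and 2.22 for Tspan2, beside 3.77 for Mbp and 4.89 for Cnp.

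Whether these genes parted the excitatory from the inhibitory types was asked with limma on the 7 pool means, with calls made where the p after Benjamini-Hochberg adjustment was below 0.05 and the 2 means lay 1 log2 unit or more apart. None of the 7 was called, and none had an unadjusted p under 0.05. Over all 4410 genes 0.0227% were called, and 273 genes had an unadjusted p under 0.05. The median difference of the 7, E minus I, was -0.33, against -0.01 over all genes. Mbp stood at 2.68 and 2.94 in the E pools, against 2.43 to 6.20 in the I pools, and Cnp at 5.27 and 5.49 in the E pools, against 4.25 to 9.14 in the I pools. For both genes the E pools lay within the range of the I pools.

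Within pairs of related types, limma on the arrays has technical error only and compares pools, not types. Between E1 and E2 none of the 7 other myelin genes was called, where 7.39% of all genes were. An unadjusted p under 0.05 was found for 2 of the 7, and for 1686 of the 4410 genes. Between I1a and I1b 1 of 7 was called, where 13.1% of all genes were. This was Car2, a carbonic anhydrase of oligodendrocytes and other cells, at 5.90 in I1a and 3.28 in I1b, a difference of 2.62 (SE 0.25, limma adjusted p 1.1e-05). Car2 reached 5 in I1a only, so its call is not set against Mbp and Cnp. With values under 5 set to 5 its difference was 0.90 and the call ended. Between I3a and I3b none of the 7 was called, where 9.91% of all genes were. An unadjusted p under 0.05 was found for 1 of the 7, and for 1809 of the 4410 genes.

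The axonal side of the myelinated fibre was read from 27 genes of nodes, paranodes and juxtaparanodes, the stretches where ion channels and adhesion proteins gather beside the sheath. Of 24 in the table, 19 reached 5. The brightest were Scn1a, a sodium channel, at 10.6 in I3a and 11.5 in I1b, against 10.3 to 11.4 in the other pools, and Sptbn1, a spectrin of the axonal skeleton, at 10.7 in I3a and 11.4 in I1b, against 10.5 to 11.3. Both genes were highest in I1b, and I3a lay among the lower pools. Between E and I pools none of the 19 was called by limma, where 0.0227% of all genes were. An unadjusted p under 0.05 was found for 4 of the 19, and for 273 of the 4410 genes.

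Between I1a and I1b 6 of the 19 were called, all of them lower in I1a, where 9.77% of all genes were called lower and 3.36% higher. The median difference of the 19 was -0.85, against -0.22 over all genes, so lower values in I1a were not particular to node genes. Kcnab1, a beta subunit of potassium channels, was at 3.69 in I1a and 7.07 in I1b, a difference of -3.37 (SE 0.29, limma adjusted p 4.9e-06). Scn4b, a beta subunit of sodium channels, was at 7.45 in I1a and 9.75 in I1b. Scn2a, a sodium channel of immature nodes, was at 6.73 in I1a and 8.18 in I1b. Between I3a and I3b 4 of 19 were called, Scn4b and Kcnab1 higher and Nrg1 and Kcnq3 lower in I3a, where 2.99% and 6.92% of all genes were. Kcnab1 was the higher in I3a, at 6.70 in I3a and 5.35 in I3b, a difference of 1.35 (SE 0.29, limma adjusted p 0.0041), and its call ended without I3b replicate 1, where the difference was 0.96. With values under 5 set to 5 the calls of Scn4b and Nrg1 ended, and that of Kcnq3 ended with averaged probe sets, at -0.20, and after quantile normalization, at -0.95. Between E1 and E2 2 of 19 were called, Kcnq3 and Kcnab1, both higher in E1, where 4.2% of all genes were called higher and 3.2% lower. Kcnq3, a potassium channel of nodes and initial segments, differed by 1.66 there, and by -0.21 when all its probe sets were averaged. The pairs share no pool, and no test compared the shares with each other.

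Other membrane glycoproteins and the partners of Mbp mRNA were mostly bright. Gpm6a, a membrane glycoprotein of neurons, lay at 11.9 in I3a and 11.5 in I1b, against 10.6 to 11.8. Gpm6b, a related glycoprotein of neurons and glia, lay at 8.05 in I3a and 6.68 in I1b, against 5.73 to 8.10. Of 9 genes whose proteins are described in binding or moving Mbp mRNA, 8 reached 5. Hnrnpa2b1, which binds the transport element of that mRNA in oligodendrocytes, was at 9.76 in I3a and 8.90 in I1b, against 8.82 to 9.76. Its levels thus did not single out I1b.

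The genes whose levels were most like those of Mbp were sought among 2522 others that reached 5 and spanned at least 1 log2 unit, as 57.2% of the 4410 did, by Pearson's r over the 7 pool means. Of these, 6 had r of at least 0.9. First was Yeats2, a chromatin protein with a histone-reading domain, with r = 0.97 but a range of only 1.01 log2 units, at 5.62 in both I3a and I1b. Next came Epb41l4b, a membrane and cytoskeleton linker of the band 4.1 family, with r = 0.96, and Prim1, the catalytic subunit of DNA primase, with r = 0.96. Cadps2, which primes dense-core vesicles for release, had r = 0.95 and a range of 3.96, at 5.86 in I3a and 6.46 in I1b, against at most 3.64 elsewhere. Lmo7, a LIM domain protein of cell junctions, had r = 0.92, at 5.97 in I3a and 4.92 in I1b, against 2.64 to 3.85. Cnp was the 6th, also with r = 0.92. Cadps2 and Lmo7 came closest to Mbp in range as well.

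For Cnp, 10 of 2522 genes had r of at least 0.9, and Mbp was the 8th. Sav1, a scaffold of the Hippo pathway, led with r = 0.95, at 6.92 in I3a, against 5.61 to 5.91 in all other pools. Plagl1, an imprinted zinc finger gene, had r = 0.95 and the widest range of the 6, 3.83, at 10.2 in I3a and 8.01 in I1b, with I3b at 8.06. Epb41l4b followed with r = 0.95, and Serinc5, a membrane protein of the serine incorporator family, with r = 0.94, at 5.24 in I3a, against 3.07 to 3.51. Ppwd1, a peptidyl-prolyl isomerase of the spliceosome, had r = 0.93 and Prim1 r = 0.92. Epb41l4b and Prim1 were on both lists. Without I3a, r with Cnp was 0.76 for Plagl1, 0.57 for Ppwd1, 0.78 for Sav1 and 0.72 for Serinc5. Likeness over 7 pools that share arrays and normalization is a description only.

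**Figure D4:**
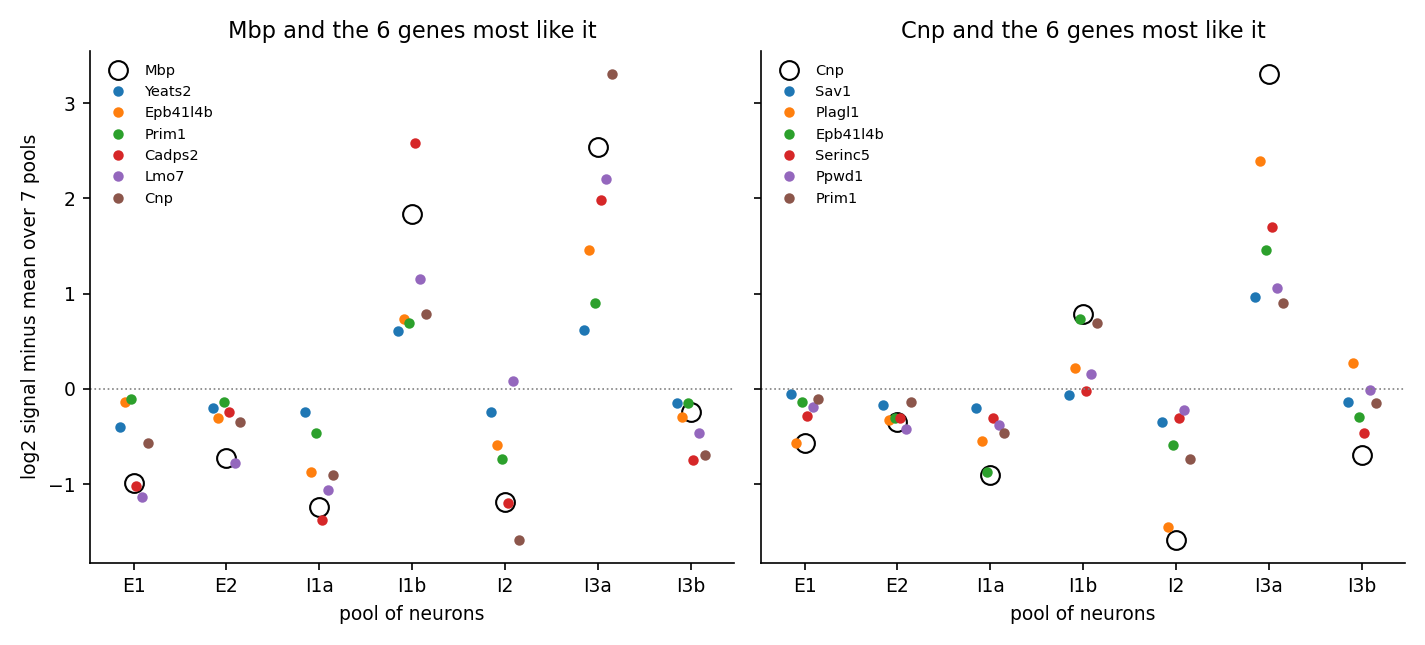
Log2 signal of pool means minus each gene's mean over the 7 pools (vertical axis), by pool (horizontal axis), for Mbp (left) and Cnp (right) as open circles and the 6 genes most like each as points. Of the points on the Cnp side all 6 are highest in I3a, and Mbp and Cadps2 are well above 0 in both I1b and I3a.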

How the data were processed

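Expression was measured on 14 arrays, 2 technical replicates of each of 7 pools of cDNA from single neurons. The authors deposited log2 signals from affy and GCRMA, per the submitters' processing notes; versions are not given in the sources used here, and the log base follows from the usual output of GCRMA. The table holds 30843 probe sets, 64 of them controls. By the platform annotation 24047 have 1 gene symbol, 477 several and 6319 none, and 23896 of the first were matched to RefSeq (GRCm38.p6) by Entrez identifier.

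A gene stood for by several 1-symbol probe sets took the one brightest on average, and was kept when a pool mean reached 5. Pool means were averages of 2 arrays. Fits used limma 3.58.1 in R 4.3.3, with lmFit and eBayes with an intensity trend over all 4410 kept genes, on pool means for E against I and on arrays for pairs of types. They were run on simulated data whose added differences lay well above 1 log2 unit, with technical error only for pairs of types. That run does not cover calls near 1 log2 unit or differences between types. Named genes were all 10 genes, the 6 most like Mbp and Cnp, and up to 4 per list by level or called difference; further genes were named after their values were seen. The 10 genes and the 10 other lists were chosen with earlier results of these data known. Alternatives were other probe set rules, scalings, floors and filters, and leaving out arrays or pools. Technical replicates give no p-value on cell types.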

Additional observations from a re-analysis of the deposited data

Results flagged for a closer look

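The 5 I pools were searched for a pool far from the other 4, by the gap to the nearest over the whole range. The search took the 10 genes, those most like Mbp or Cnp and up to 4 per list by level. Of these, 30 spanned at least 1 log2 unit over the I pools. Genes named only for a called difference or after their values were seen, such as Car2, Gsn and Pdgfra, were not searched. Among the 30, 1 pool stood apart in 5 genes. Chance gives about 1 in 20 for groups taken at random, a rate that does not apply here. The searched genes were the 10 or were chosen for their level or their likeness to Mbp or Cnp. In I3a, where Mbp and Cnp were highest, Gja1 was at 4.19 against 2.40 to 2.66 in the other I pools, Sav1 at 6.92 against 5.61 to 5.89, and Serinc5 at 5.24 against 3.07 to 3.51. In I2, where Cnp was lowest, Rgs5 was at 7.35 against 2.47 to 2.49, and Ptprz1, a receptor phosphatase of precursors and neurons, at 9.80 against 6.05 to 6.56. Neither Mbp nor Cnp met this mark themselves.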

How the results depend on the processing

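The range of Mbp pool means, 3.77, was 1.70 when its 6 probe sets were averaged and 1.20 with values under 5 set to 5. It was 3.67 to 3.90 without replicate 1 or 2, and 3.07 to 3.77 when 1 pool was left out. The Cnp range, 4.89, was 2.44 when both probe sets were averaged, 4.14 with values under 5 set to 5, and 0.094 with probe sets of suffix x or s left out. It was 4.60 to 5.17 without replicate 1 or 2, and 2.36 to 4.89 when 1 pool was left out. Genes of the 10 that reached the level were 1, not 2, when probe sets were averaged, without suffixes x and s, or at a level of 7. Without those suffixes r with Cnp turned to -0.12 for Mbp, -0.33 for Sav1, -0.23 for Epb41l4b, -0.31 for Serinc5, -0.46 for Ppwd1 and -0.0065 for Prim1, since Cnp is then read by its flat probe set. For Cadps2, r with Mbp was 0.73 with values under 5 set to 5, in place of 0.95. For Prim1, r with Mbp was 0.74 without replicate 1 and 0.86 with averaged probe sets, in place of 0.96.

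Genes called for E against I, 1 of 4410, were 2 with values under 5 set to 5, with a level of 7 to keep a gene or with no filter, 0 with no intensity trend, and 6 in a fit to arrays in which pool was a random block. They were 0 or 1 without replicate 1 or 2 and 0 to 2 without 1 pool. The 7 other myelin genes and 19 node genes gave 0 calls for E against I in every setting run. For E1 against E2, 326 calls became 187 with averaged probe sets, 217 with values under 5 set to 5 and 193 at a level of 7. For I1a against I1b, 579 became 309, 358 and 304 in the same settings, and for I3a against I3b, 437 became 246, 256 and 218. The 6 node genes called for I1a against I1b became 4 with averaged probe sets or after quantile normalization, and 5 after median centring. Node genes called for E1 against E2 were 1 with averaged probe sets and 2 to 4 without 1 array, with 4 without E1 replicate 2, and for I3a against I3b 2 with values under 5 set to 5. Other myelin genes called for E1 against E2 were 1 after quantile normalization or median centring, and 0 or 1 without 1 array, with 1 without E1 replicate 1 or E2 replicate 2. For I1a against I1b they were 0 with values under 5 set to 5 or at a level of 7. The Kcnq3 difference for E1 against E2 turned to -0.21 with averaged probe sets. Leaving out single arrays of a pair, and every alternative for the r values, were chosen after seeing the data, and the array left alone is assumed to vary like the others. The cause of these changes was not tested except where stated.

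The replicate numbers only name technical arrays. Differences of replicate 1 minus 2 correlated between pools at -0.12 to 0.21. In the fit to arrays with a random pool block, adding a replicate block gave 5 calls for E against I in place of 6. With a replicate block alone the calls were 327 for E1 against E2, 579 for I1a against I1b and 436 for I3a against I3b. Pair fits without replicate 1 or 2 of every pool were not run, as no residual freedom is left. Values near the floor of 2.39 have no order, which limits the 8 genes there.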
